A study of Mus musculus with 6 samples.

Results

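Circadian output genes turn the time kept by the molecular clock into daily changes in the rest of the liver transcriptome. In the clock, the activators BMAL1 (encoded by Arntl) and CLOCK bind E-box sequences and drive transcription of their own repressors, the period and cryptochrome genes, and of output regulators such as Dbp. DBP, TEF and HLF are PAR bZIP factors, activators named for a proline and acidic amino acid rich domain, and they bind D-box sequences, where NFIL3 binds as a repressor, and in liver they are known for driving genes of drug and heme metabolism over the day. The genes examined here in liver tumors were these 4 bZIP factors (Dbp, Tef, Hlf and Nfil3), the repressors Ciart, Bhlhe40 and Bhlhe41, which act on the CLOCK and BMAL1 pair or at its E-boxes, and a pair of rhythmic liver enzymes, the deubiquitinase Usp2 and the uridine phosphorylase Upp2. They were chosen by gene symbol with an earlier genotype comparison of the same expression values known, so their differences between genotypes are given as a description and support nothing on their own. All 9 symbols were found among 30236 rows of the table, each on a single row.

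The table holds RNA-seq of 6 murine hepatocellular carcinomas, 3 labelled WT and 3 labelled Top1mt -/- (here Top1mt-KO), a constitutive knockout of the mitochondrial type IB topoisomerase. All tumors came from male C57BL/6 mice, WT and knockout littermates, given the mutagen diethylnitrosamine at postnatal day 14 and then the hepatotoxin carbon tetrachloride 2 times per week for 14 weeks from 8 weeks of age, with collection at 22 weeks. No untreated liver and no tissue next to the tumors was used here, and the hour of the day at which each tumor was taken is not given in the sources used here. The labels do not say whether the 3 tumors of a genotype came from 3 mice, so p-values measure the spread between these samples only. Values are log2 expression units that the authors normalized between libraries. Read totals are not known, and levels are not corrected for transcript length, so differences were taken between libraries within a gene. Where levels of different genes are set side by side or summed, they are a rough guide only.

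The knockout was checked in each library first. The log2 level of Top1mt was 7.71, 5.99 and 8.01 in WT replicates 1, 2 and 3, as labelled, and 5.58, 6.41 and 6.32 in the libraries labelled Top1mt-KO replicates 1, 2 and 3. The library labelled WT replicate 2 lay below 2 of the 3 libraries labelled Top1mt-KO, against its label, so each direction below rests on the labels, and the counts of directions are also given without that library (Top1mt log2 fold change -1.13, standard error 0.52, adjusted p = 0.999 by limma; -1.76 without WT replicate 2; exact two-sided permutation test, p = 0.3, where 0.1 is the smallest that 3 against 3 allow). The library labelled Top1mt-KO replicate 1 stood apart in another way, with 17.7% of its summed linear values in Gm42418, against at most 0.387% in the other 5 libraries. The hepatocyte markers Alb, Ttr, Apoa1, Apob, Hnf4a and Cps1 were among the highly expressed genes (Alb from 20.26 to 21.12 and Hnf4a from 13.02 to 13.54 log2 units), and Tf was not analysed here. Over the 22677 genes tested, 0 passed an adjusted p of 0.05 by limma (0%), so 0 of the 9 output genes did, and no gene had an adjusted p by limma below 0.938. An unadjusted p under 0.05 was reached by 985 genes (4.34%), 6 of them among the 9.

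Promoter windows of 300 bases, 250 before and 50 after an annotated start, are shown for the output genes whose windows hold letters of the clock's binding motifs, since these letters are those of their known regulators, and for Per3, the gene whose profile was closest to that of Dbp. The windows come from RefSeq on GRCm38.p6 and were matched by symbol for 8 of the 9 genes, in 10 windows. Bhlhe40 had no entry. Capitals mark matches, which were sought on both strands and did not overlap each other. The E-box was searched as CACGTG, the D-box as TTATGTAA or TTACGTAA, and the ROR and REV-ERB element as TAGGTCA or TGGGTCA. These were found in 7.15%, 1.06% and 6.45% of all 32851 windows. The sequences below read 5′ to 3′ on the strand of the gene.
Ciart, chr3:95882179-95882478, minus strand: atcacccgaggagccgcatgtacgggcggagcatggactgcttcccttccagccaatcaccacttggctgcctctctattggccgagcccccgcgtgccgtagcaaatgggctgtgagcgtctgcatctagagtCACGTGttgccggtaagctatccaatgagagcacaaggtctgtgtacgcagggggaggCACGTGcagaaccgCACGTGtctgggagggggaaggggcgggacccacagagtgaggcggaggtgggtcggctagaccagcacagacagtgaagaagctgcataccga
Tef first start, chr15:81802423-81802722, plus strand: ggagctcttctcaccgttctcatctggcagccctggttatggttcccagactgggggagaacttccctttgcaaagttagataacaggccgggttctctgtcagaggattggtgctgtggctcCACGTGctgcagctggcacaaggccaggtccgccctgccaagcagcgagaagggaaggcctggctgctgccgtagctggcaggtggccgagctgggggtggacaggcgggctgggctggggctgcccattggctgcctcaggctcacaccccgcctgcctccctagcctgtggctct
Tef second start, chr15:81811164-81811463, plus strand: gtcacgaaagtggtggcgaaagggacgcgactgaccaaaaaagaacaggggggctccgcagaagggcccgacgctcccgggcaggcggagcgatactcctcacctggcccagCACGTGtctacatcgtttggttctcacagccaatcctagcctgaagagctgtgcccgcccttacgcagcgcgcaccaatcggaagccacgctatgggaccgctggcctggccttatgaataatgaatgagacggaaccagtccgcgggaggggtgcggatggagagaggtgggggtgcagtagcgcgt
Bhlhe41, chr6:145865371-145865670, minus strand: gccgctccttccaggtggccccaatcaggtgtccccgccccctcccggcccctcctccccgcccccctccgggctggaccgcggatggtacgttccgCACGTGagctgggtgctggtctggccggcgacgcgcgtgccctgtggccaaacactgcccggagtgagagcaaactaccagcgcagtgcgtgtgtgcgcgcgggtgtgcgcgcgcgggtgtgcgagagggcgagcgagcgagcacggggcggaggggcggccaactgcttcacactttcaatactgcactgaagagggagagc
Nfil3, chr13:52980990-52981289, minus strand: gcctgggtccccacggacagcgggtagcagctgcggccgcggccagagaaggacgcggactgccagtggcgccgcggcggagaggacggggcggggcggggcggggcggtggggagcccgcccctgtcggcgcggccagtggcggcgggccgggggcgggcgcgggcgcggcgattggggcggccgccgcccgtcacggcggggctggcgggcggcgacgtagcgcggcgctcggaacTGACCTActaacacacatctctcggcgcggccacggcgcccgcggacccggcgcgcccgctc
Per3, chr4:151044616-151044915, minus strand: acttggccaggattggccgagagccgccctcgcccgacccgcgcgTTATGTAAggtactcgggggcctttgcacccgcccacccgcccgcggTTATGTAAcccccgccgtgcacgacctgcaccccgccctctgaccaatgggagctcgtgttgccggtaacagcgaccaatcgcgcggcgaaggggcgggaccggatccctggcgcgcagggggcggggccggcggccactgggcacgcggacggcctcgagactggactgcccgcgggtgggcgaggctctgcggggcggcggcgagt

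Of the 8 output genes with a window, 3 held an E-box. Ciart held 3 of them, the nearest from -44 to -39 relative to the start, and 29 of all windows (0.088%) held 3 or more. Both Tef windows held 1, and the Bhlhe41 window held 1. The Nfil3 window held the reverse complement of TAGGTCA from -12 to -6, and no other output gene held that element. None of the 10 windows held a D-box in these letters, which says nothing of sequence further away. Of 10 core clock genes with a window, 2 held an E-box (Per1 and Cry1), 1 a ROR and REV-ERB element (Arntl) and 1 a D-box. The last was Per3, which held 2 D-boxes, and 8 of all windows (0.024%) held 2 or more. The windows of Dbp, Hlf, Usp2 and Upp2 held none of these letters. A match is a description of sequence, and binding was not measured in these tumors.

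Across the output genes, 8 of 9 had a lower mean in Top1mt-KO than in WT tumors and 1, Nfil3, a higher mean. The median log2 fold change of the 9 genes was -1.33, beside -0.015 for all genes tested, of which 52.3% were lower. The groups did not overlap in 6 genes, 5 lower and 1 higher in Top1mt-KO. Over all genes tested the groups did not overlap in 8.28%, with 4.33% lower and 3.95% higher. Without WT replicate 2 the directions were again 8 lower and 1 higher, and without Top1mt-KO replicate 3 as well. In the 6 genes without overlap, leaving out a library cannot reverse the direction. The median was -1.44 without WT replicate 2 and -0.78 without Top1mt-KO replicate 3. Without Top1mt-KO replicate 1, the library rich in Gm42418, it was -1.43. Leaving out WT replicate 2 gave log2 fold changes of -1.44 for Tef, -0.61 for Hlf, -0.37 for Bhlhe40, -2.06 for Usp2 and -1.61 for Upp2, and the other output genes are given so with their values. In bulk tumor RNA, fewer cells that express a gene and less of its RNA per cell cannot be told apart. These transcripts change over the day and the hour of collection is not known, so its part in the differences was not tested.

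**Figure D1:**
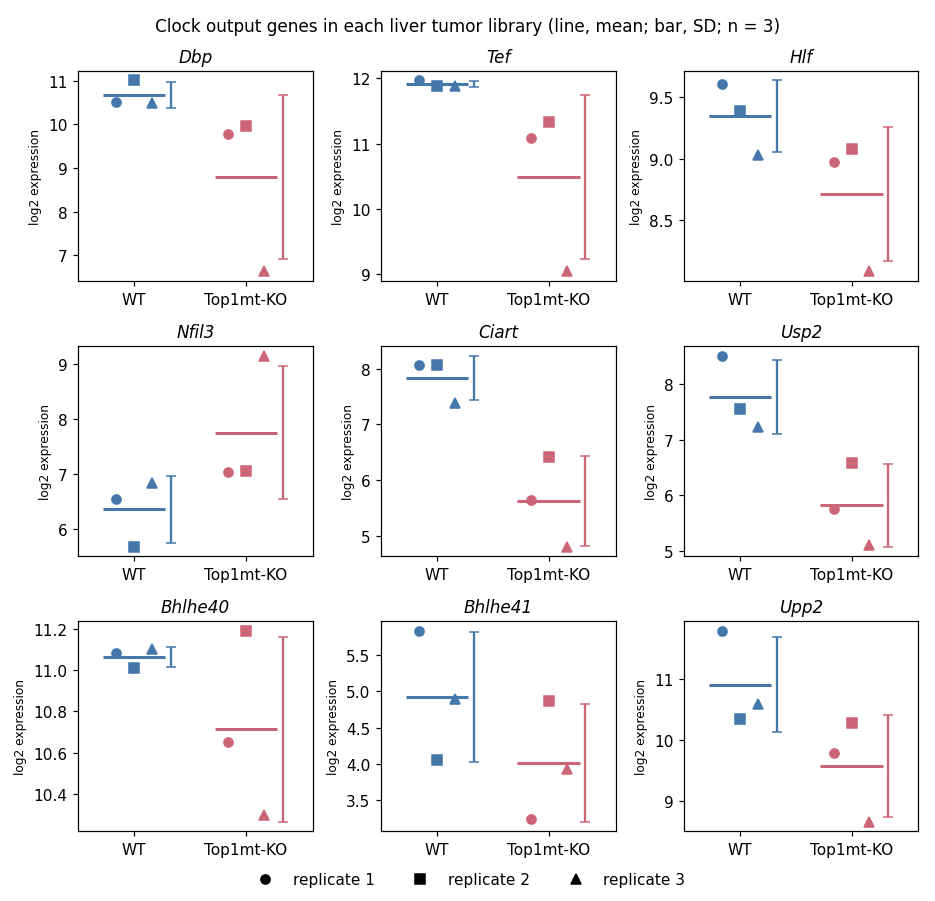
Log2 expression (y axis) of each of the 9 output genes in the 3 WT and 3 Top1mt-KO libraries (x axis). Symbols mark the replicate numbers, for which the labels give no pairing, horizontal lines the means and bars the SD. Each panel has its own y range. Top1mt-KO replicate 3, the triangle, is the lowest of the 6 libraries in 7 genes, beside 22.4% of all genes tested, and the highest in Nfil3.

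The PAR bZIP activators were all lower in Top1mt-KO by their means. Dbp, known for a strong daily rhythm in liver, had log2 levels of 10.51, 11.01 and 10.49 in WT replicates 1, 2 and 3 and of 9.79, 9.97 and 6.63 in Top1mt-KO replicates 1, 2 and 3. The groups did not overlap, and Top1mt-KO replicate 3 deviated from the WT mean by -4.04 log2 units, where Top1mt-KO replicates 1 and 2 deviated by -0.88 and -0.69. The WT mean was 10.7 ± 0.30 (SD, n = 3) and the Top1mt-KO mean 8.80 ± 1.88 (SD, n = 3). Dbp thus had a log2 fold change of -1.87 (standard error 0.79), and of -0.78 without Top1mt-KO replicate 3 and -1.70 without WT replicate 2.

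Tef, which encodes thyrotroph embryonic factor, was nearly level among WT tumors, with 11.97, 11.89 and 11.88. The Top1mt-KO tumors had 11.09, 11.34 and 9.04, all below WT. Between genotypes Tef differed by -1.43 on the log2 scale (standard error 0.53), and -0.70 without Top1mt-KO replicate 3. Hlf, hepatic leukemia factor, spanned less, with 9.61, 9.39 and 9.03 in WT and 8.97, 9.08 and 8.08 in Top1mt-KO. For Hlf the groups overlapped, because Top1mt-KO replicate 2 lay just above WT replicate 3. Hlf differed by -0.63 on the log2 scale (standard error 0.28), and -0.32 without Top1mt-KO replicate 3.

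Nfil3, the repressor that occupies the same D-boxes, went the other way. Its log2 levels were 6.55, 5.68 and 6.84 in WT and 7.04, 7.06 and 9.15 in Top1mt-KO. The groups did not overlap, with a gap of 0.20 log2 units, and Top1mt-KO replicate 3 was 2.79 above the WT mean. For Nfil3 the log2 fold change came to 1.39 (standard error 0.58). It was 0.69 without Top1mt-KO replicate 3 and 1.05 without WT replicate 2. The tumor with the lowest Dbp and Tef thus had the highest Nfil3, and WT replicate 2, with the highest Dbp, had the lowest Nfil3.

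**Figure D2:**
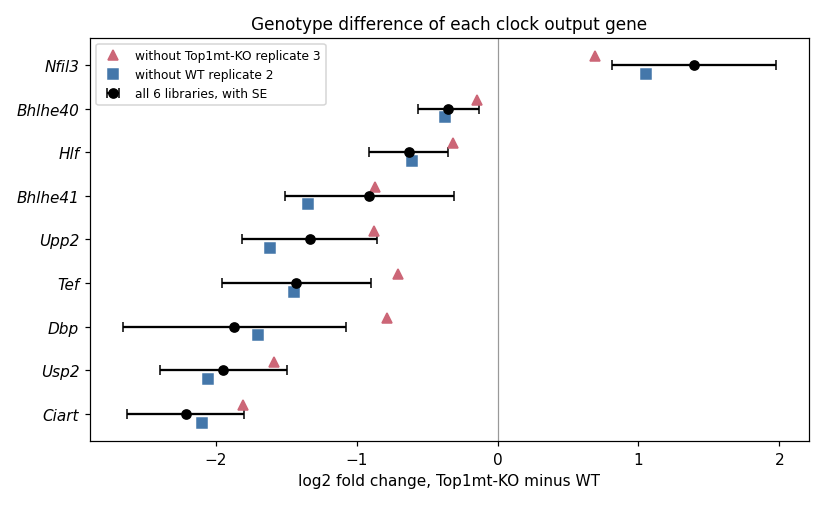
Log2 fold change, Top1mt-KO minus WT (x axis), of the 9 output genes (y axis) from limma with all 6 libraries (black, bars show the SE), without Top1mt-KO replicate 3 (triangles) and without WT replicate 2 (squares). Every gene stays on its side of 0, which is fixed in advance for the 6 whose groups do not overlap. Dbp moves from -1.87 to -0.78 without Top1mt-KO replicate 3.

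Ciart, a repressor of CLOCK and BMAL1, had the largest difference of the 9. Its log2 levels were 8.06, 8.07 and 7.38 in WT and 5.64, 6.42 and 4.81 in Top1mt-KO, and the groups were 0.96 log2 units apart. Its log2 fold change, -2.21 (standard error 0.41), is a 4.64-fold lower level in Top1mt-KO. It was -1.81 without Top1mt-KO replicate 3 and -2.10 without WT replicate 2.
Bhlhe40 and Bhlhe41 encode DEC1 and DEC2, related repressors that bind E-boxes. Bhlhe40 had 11.08, 11.01 and 11.10 in WT and 10.65, 11.19 and 10.30 in Top1mt-KO. Its groups overlapped, since Top1mt-KO replicate 2 was the highest of the 6. Bhlhe40 differed by -0.35 on the log2 scale (standard error 0.22), and -0.14 without Top1mt-KO replicate 3. Bhlhe41 was low and variable, with 5.83, 4.05 and 4.89 in WT and 3.25, 4.86 and 3.93 in Top1mt-KO, and its groups overlapped. Bhlhe41 differed by -0.91 (standard error 0.60), and single libraries moved it from -1.35 without WT replicate 2 to -0.46 without WT replicate 1.

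Usp2, whose deubiquitinase has PER1 and cryptochrome proteins among its known substrates, had 8.52, 7.55 and 7.24 in WT and 5.76, 6.59 and 5.11 in Top1mt-KO. The lowest WT and the highest Top1mt-KO library were 0.65 log2 units apart. The genotypes differed by -1.95 on the log2 scale (standard error 0.45), a 3.85-fold lower level. It was -1.59 without Top1mt-KO replicate 3 and -1.57 without WT replicate 1. Upp2, which splits uridine into uracil and a ribose phosphate and is found mainly in liver, had 11.79, 10.34 and 10.59 in WT and 9.78, 10.28 and 8.66 in Top1mt-KO. The groups did not overlap by a margin of 0.06 log2 units. Upp2 differed by -1.33 on the log2 scale (standard error 0.48), and -0.88 without Top1mt-KO replicate 3.

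The order of the tumors within a genotype is given as a description, since a single low Top1mt-KO library also adds to the genotype difference that was known when the genes were chosen. Nfil3, set apart for its direction, had the order 3, 2, 1 among the Top1mt-KO replicates from high to low. Among the Top1mt-KO libraries, replicate 2 was the highest in 8 of the 8 genes other than Nfil3, and replicate 3 the lowest in 7 of the 8. The exception was Bhlhe41, where replicate 1 was the lowest. The full order replicate 2, 1, 3 held in 7 of the 8 genes and in 12.2% of all genes tested. Top1mt-KO replicate 3 was the lowest of all 6 libraries in 7 of the 8, beside 22.4% of all genes tested. The WT libraries showed no common order, with replicate 1 the highest in 5 of the 8 genes, replicate 2 in 2 and replicate 3 in 1. Averaged over the 8 genes, the level relative to the mean of the 6 libraries was 1.03, 0.53 and 0.44 log2 units in WT replicates 1, 2 and 3 and -0.52, 0.082 and -1.57 in Top1mt-KO. The 9 genes share regulators and are not independent of each other.

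The spread between tumors of the same genotype is likewise a description, since genes with a wide spread reach large differences of means more often. The within-genotype SD was 1.35 log2 units for Dbp, 0.96 for Nfil3, 0.89 for Tef, 0.85 for Bhlhe41 and 0.80 for Upp2, against a median of 0.385 over all genes tested. It was 0.70 for Usp2, 0.64 for Ciart, 0.44 for Hlf and 0.32 for Bhlhe40. Because weakly expressed genes vary more in this table, each gene was also set beside the 1000 genes closest to it in mean level. The SD of Dbp was larger than that of 99.7% of these, that of Tef larger than 98.2%, of Upp2 98.1% and of Nfil3 97.5%. Usp2 exceeded 92.3%, Hlf 90%, Ciart 87.6%, Bhlhe41 86.8% and Bhlhe40 73.2%. For Dbp and Tef the spread lay in the Top1mt-KO tumors, with an SD of 1.88 and 1.26 there and of 0.30 and 0.052 in WT, and it rested on Top1mt-KO replicate 3. Without that library the within-genotype SD was 0.253 for Dbp, 0.111 for Tef and 0.494 for Nfil3, larger than that of 68.4%, 17.9% and 82.3% of the genes closest in level. Upp2 kept a wide spread without it, at 0.664 and larger than 97.5%, as did Bhlhe41 at 0.98 and 91.2%, and Usp2 at 0.639 and 88%.

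**Figure D3:**
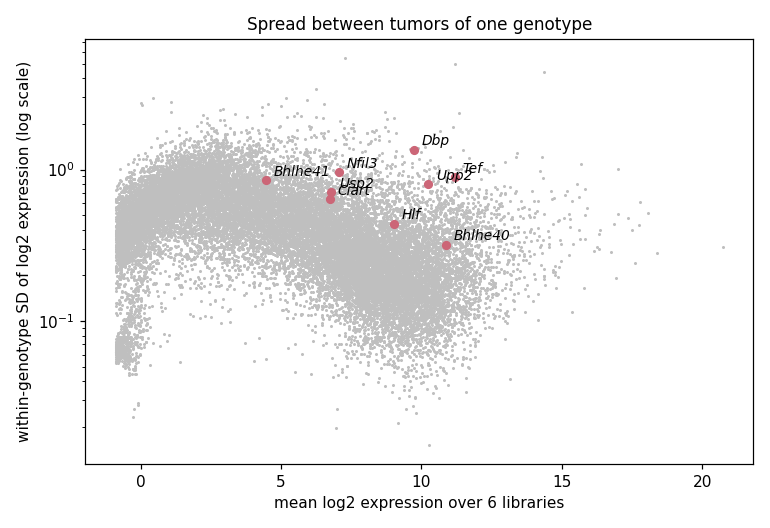
Within-genotype SD of log2 expression (y axis, log scale) against mean log2 expression over the 6 libraries (x axis) for all 22677 genes tested (grey) and the 9 output genes (red, named). Dbp at 1.35, Tef at 0.89 and Upp2 at 0.80 lie near the upper edge for their level with all 6 libraries, and without Top1mt-KO replicate 3 these SDs are 0.253, 0.111 and 0.664.

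The genes with a profile most like that of Dbp were sought over the 6 libraries, by the root mean square difference between log2 levels centred on their own mean. Per3, a period gene of the clock, was the closest of all genes tested, at 0.209 log2 units. Its levels were 10.88, 11.40 and 11.17 in WT and 10.39, 10.47 and 7.62 in Top1mt-KO, and like Dbp it was lowest in Top1mt-KO replicate 3. Its promoter window is the one shown above with 2 D-boxes. Tef was second, at 0.463. Outside the output genes the next were Gm11615 (0.529), Cnnm1 (0.549), Gm12059 (0.561) and Cyp2a4 (0.570), and the first 3 of these were weakly expressed, with levels of at most 3.65. Ciart was at rank 30, Usp2 at 79, Upp2 at 92, Hlf at 223, Bhlhe40 at 888 and Bhlhe41 at 5651 among the 22677 genes. Nfil3 stood near the far end at rank 22616, with Arntl at 22663 and Npas2 at 22665.

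The core clock genes were examined as the other genes of the pathway, from a list of 11 genes, all of them tested. By their means 6 were lower and 5 higher in Top1mt-KO. The groups did not overlap in 3 lower and 2 higher genes, beside 4.33% and 3.95% of all genes tested. Limma's adjusted p was under 0.05 for 0 of the 11 core clock genes. Their median log2 fold change was -0.03 (0.09 without WT replicate 2 and 0.12 without Top1mt-KO replicate 2). By their means the activators Arntl, Npas2 and Clock were higher in Top1mt-KO, and Rora was at -0.03. The repressors Per1, Per2, Per3, Cry2 and Nr1d2 were lower, and the repressors Cry1 and Nr1d1 higher. Without WT replicate 2 the means were lower in 5 genes and higher in 6, and without Top1mt-KO replicate 3 lower in 7 and higher in 4. Among the activators, Arntl had 5.86, 4.75 and 5.29 in WT and 6.90, 5.88 and 9.42 in Top1mt-KO. Its groups did not overlap, by 0.02 log2 units, and its difference was 2.10 log2 units (standard error 0.81), or 1.09 without Top1mt-KO replicate 3. Npas2, which can stand in for CLOCK as the partner of BMAL1, had 2.79, 3.83 and 1.94 in WT and 4.82, 2.88 and 7.02 in Top1mt-KO, with overlapping groups and a log2 fold change of 2.05, or 0.996 without Top1mt-KO replicate 3. Clock itself did not overlap between groups, with a log2 fold change of 0.68, and Rora, which encodes the activator ROR alpha, had -0.03 with overlapping groups.

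Among the repressors, Per2 had 10.33, 10.52 and 10.19 in WT and 9.69, 9.62 and 8.01 in Top1mt-KO. Per2 differed by -1.24 log2 units (standard error 0.41) and Per3 by -1.66 (standard error 0.69), both without overlap of the groups. Without Top1mt-KO replicate 3 they were -0.69 and -0.72. Nr1d2, which encodes the repressor REV-ERB beta, did not overlap either, by 0.02 log2 units, and had a log2 fold change of -0.85 (-0.29 without Top1mt-KO replicate 3). Per1 overlapped between groups and had a log2 fold change of -0.80, but -0.015 without Top1mt-KO replicate 3, where its level was 7.38 against 9.42 to 9.94 in the other 5 libraries. Cry2 overlapped as well, at -0.22. The repressors Cry1 and Nr1d1 had higher means in Top1mt-KO, with overlapping groups. Cry1 had a log2 fold change of 0.49, but -0.15 without Top1mt-KO replicate 3, and Nr1d1 one of 0.21, but -0.070 without WT replicate 3. Top1mt-KO replicate 3 was the lowest of the 6 libraries in 5 and the highest in 4 of the 11 core clock genes, beside 22.4% and 16.1% of all genes tested.

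**Figure D4:**
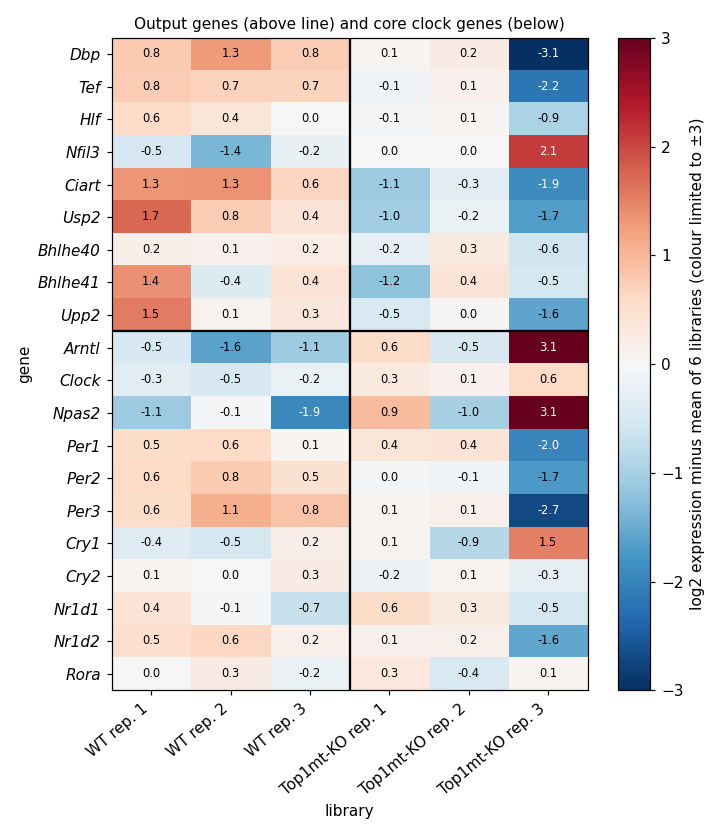
Log2 expression minus the mean of the 6 libraries (colour and printed value, colour limited to 3 units either way) for the 9 output genes (above the line) and 11 core clock genes (below), in 3 WT and 3 Top1mt-KO libraries (columns). In Top1mt-KO replicate 3, Dbp and Per3 are low while Nfil3, Arntl and Npas2 are high.

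Liver genes known to depend on DBP, TEF and HLF were examined next, from a list of 10. By their means 10 of 10 were lower in Top1mt-KO, beside 52.3% of all genes tested, with a median log2 fold change of -0.84. Overlap was lacking for 2 genes, both lower, beside 4.33% of all genes tested, and limma's adjusted p was under 0.05 for 0 of them. Por, the reductase that passes electrons to the microsomal cytochromes P450, had 12.15, 11.67 and 11.52 in WT and 10.90, 11.45 and 10.47 in Top1mt-KO, and did not overlap (log2 fold change -0.84, standard error 0.27, and -0.61 without Top1mt-KO replicate 3). Cyp2a4, a steroid hydroxylase, had 15.35, 15.36 and 15.67 in WT and 14.37, 14.35 and 12.62 in Top1mt-KO, and did not overlap either (difference of -1.68 log2 units, standard error 0.48, and -1.10 without Top1mt-KO replicate 3). Cyp2a5, a close paralog whose reads may be divided between the pair, overlapped between groups, with a log2 fold change of -1.48 (-0.74 without Top1mt-KO replicate 3). Cyp2b9 overlapped as well, and its log2 fold change of -0.96 rested on Top1mt-KO replicate 3, without which it was -0.049. Alas1, the first enzyme of heme synthesis, overlapped too, at -0.93 and at -0.56 without that library. Nr1i3, the receptor CAR, had a log2 fold change of -0.065. Without Top1mt-KO replicate 3 the list again had 10 lower genes, with a median of -0.63, and without WT replicate 2 a median of -0.92. It had 8 lower and 2 higher genes with a median of -0.52 without WT replicate 1, 8 lower and 2 higher genes with a median of -0.60 without Top1mt-KO replicate 1, and 10 lower genes with a median of -1.31 without Top1mt-KO replicate 2.

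A list of 7 other rhythmic liver transcripts had 6 lower and 1 higher in Top1mt-KO, with a median log2 fold change of -0.61 and no adjusted p under 0.05 by limma. Only 1 gene of the 7 lacked overlap, beside 8.28% of all genes tested. Wee1, a kinase that holds back mitosis, had the largest difference, with a log2 fold change of -0.96 (-0.52 without Top1mt-KO replicate 1) and overlapping groups. Gys2, the liver glycogen synthase (-0.83, and -0.46 without WT replicate 2), and Noct, the phosphatase nocturnin (-0.73, and -0.47 without Top1mt-KO replicate 3), overlapped too. Tspan4 did not overlap, with a gap that rounds to 0 log2 units and a log2 fold change of -0.61. Without Top1mt-KO replicate 3 the list had 5 lower genes and a median of -0.41, and without WT replicate 2 it had 5 lower genes and a median of -0.50.

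Markers of hepatocytes and of other cell types were set beside these genes. Of the 6 hepatocyte markers, 3 were lower and 3 higher by their means in Top1mt-KO. Only Ttr lacked overlap, by 0.01 log2 units, at a log2 fold change of 0.58, beside 3.95% of all genes tested. Of 5 bile duct markers, 3 were lower and 2 higher in Top1mt-KO, and 2 did not overlap, beside 8.28% of all genes tested. These 2 were Krt19 at a log2 fold change of -2.68 and Epcam at -1.19 (-0.64 without WT replicate 3). Krt7 overlapped, at -2.20. Their summed linear level ranged from 3060 to 6300 in WT and from 3330 to 6120 in Top1mt-KO, and Spp1 made up 83.7% to 97.4% of it. Without Spp1, a sum added after seeing the data, it ranged from 176 to 498 in WT and from 160 to 221 in Top1mt-KO. All 6 stellate and fibroblast markers were lower by their means, with overlapping groups and summed levels of 5380 to 14600 in WT and 2820 to 10800 in Top1mt-KO. All 5 endothelial markers were higher by their means, 2 without overlap, beside 3.95% of all genes tested. Their summed levels were 6310 to 7460 in WT and 6900 to 8360 in Top1mt-KO. Of 6 macrophage markers, 3 were lower and 3 higher, all overlapping, with summed levels of 4700 to 10200 and 4280 to 7200. The 7 lymphoid markers were low, with summed levels of 78.8 to 118 and 87.6 to 146. Of the lymphoid genes, Cd3e was lower and Cd3g higher without overlap. None of these markers had a log2 value under 0 in any library. The part of other cell types in the differences of the output genes was not tested.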

How the data were processed

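RNA-seq of 6 liver tumor libraries was analysed, with genotype and replicate number taken from the titles in the labels. The authors deposited log2 values per gene symbol, from -2.24 to 22.0, in a transform that the sources used here do not name. The study's methods give trimming with Trimmomatic, BWA alignment to a genome named Mm 8 and counting with featureCounts. The submitters' processing notes list bcl2fastq 2.17, Trimmomatic 0.36, STAR 2.5.1, Subread, DESeq2 and GRCm38 instead, so the build is unclear, and coordinates printed here are those of RefSeq. Columns with no name (3) were not used. No read depth can be had from these values.

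The comparison of genotypes used limma 3.58.1 under R 4.3.3 (lmFit, eBayes with trend, Benjamini-Hochberg over all genes tested, threshold 0.05) on genes with a mean above the lowest 25%. Not overlapping means that all libraries of a genotype lay above or below all of the other. The members and gene lists were chosen with earlier results of these data known. Named are all members, Top1mt and the 5 genes closest to Dbp outside the members. In the lists of core clock, target and other rhythmic genes, those with the largest differences or without overlap are named. Of the cell type markers, not all such genes are named. A withheld item is not reported here. Alternatives were no trend, quantile normalization, no filter, keeping only genes above the median level, a block for the replicate number and each library left out in turn. The spread without each library was added after seeing the data.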

Additional observations from a re-analysis of the deposited data

How the results depend on the processing

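All 9 output genes kept their direction under the 11 alternatives, and none passed an adjusted p of 0.05 by limma (99 of 99 results, smallest adjusted p 0.516). Most of these directions were fixed in advance. The settings of trend, filter and block leave each log2 fold change as it was. With a library left out, only Hlf, Bhlhe40 and Bhlhe41, whose groups overlap, could have reversed. The size of the differences depended on single libraries, since 7 of the 9 log2 fold changes moved by over 1.5 times when some library was left out. The median of the 9 ran from -1.68 without Top1mt-KO replicate 2 to -0.78 without Top1mt-KO replicate 3, and was -0.89 without WT replicate 1. The groups did not overlap in 6 to 9 of the 9 genes with a library left out, where 15.9% to 21.5% of all genes tested did not. The median of the core clock list, near 0, changed sign, from -0.19 to 0.12 with a library left out (0.09 without WT replicate 2, 0.12 without Top1mt-KO replicate 2). Over all genes tested, limma called 4 genes with no filter on low values, and 0 to 1 with a library left out (1 without Top1mt-KO replicate 1). The cause was not tested. The replicate block gave 0 genes. In this balanced design it cannot change a log2 fold change, so the median of the output genes had to stay at -1.33. The labels give no pairing by replicate number. Over all genes tested, deviations from the genotype mean correlated by -0.123, -0.0759 and 0.0520 between libraries numbered 1, 2 and 3. A correlation over all genes says little of a pairing that acts on few of them. With the block the standard error fell for every output gene but Bhlhe40 and Bhlhe41, for Dbp from 0.79 to 0.57. It stayed at 0.22 for Bhlhe40 and rose from 0.60 to 0.68 for Bhlhe41. Whether a pairing acts on clock genes was not tested. Unknown depth limits statements on weakly expressed genes such as Bhlhe41 and Npas2.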
